A study of Homo sapiens with 4 samples.

Results

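Translation initiation and elongation factors are the proteins that load ribosomes onto messenger RNA, find the start codon and move the ribosome along the coding sequence. The genes described here are the protein-coding genes whose symbols begin with EIF or EEF, leaving out EIF6, EEF2K, EEF2KMT and the names that begin with EIF2AK or EEF1AKMT, which are assembly factors, kinases and methyltransferases. This rule, which uses names and no measured value, found 60 genes among the 51103 of the tables, 19922 of which are protein-coding. The poly(A) RNA came from AGS, a long-established gastric adenocarcinoma line of human origin kept in medium with fetal bovine serum, so the data describe 1 cell line. The FGF2 group was given recombinant human fibroblast growth factor 2 at 20 ng/mL and harvested at 24 h. The other group is called NC, a name that the labels leave unexplained, and the treatment text attached to its libraries also speaks of FGF2, so what was added to NC cells is not known from them. Each group has 2 libraries.

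Initiation starts when eIF2 carries the initiator tRNA, with eIF1, eIF1A, eIF3 and eIF5, onto the small ribosomal subunit, while eIF4F (the cap-binding protein eIF4E, the helicase eIF4A and the scaffold eIF4G) prepares the mRNA. The 4E-binding proteins compete with eIF4G for eIF4E, and growth signals that act through mTORC1 release that brake by phosphorylating them. In elongation, eEF1A delivers aminoacyl-tRNA, the eEF1B complex recharges eEF1A with GTP, and eEF2 moves the ribosome to the next codon. Many of these factors are encoded by mRNAs that begin with a C and a run of pyrimidines, the 5′ terminal oligopyrimidine start, a feature known for its part in the control of their translation.

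The deposited counts of the FGF2 group summed to 13790335 and 27598608 in libraries 1 and 2, against 14073340 and 27325697 in the NC group. Within each group, library 1 exceeded the deeper library 2 at just 2 genes (of 22043 with counts in FGF2 and of 22485 in NC), where separate libraries of these depths would give 1192 and 1214. Library 2 therefore has the counts of a library that holds the reads of library 1, and each group was counted as 1 sample. As RNA was taken from whole cultures, fewer cells of a kind and less RNA per cell cannot be told apart. No difference below has a check by separate replicates, and no p-value can be given. A list of 5 epithelial markers summed to 444 and 438 FPKM in FGF2 libraries and to 485 and 492 FPKM in NC libraries. Of its keratins, KRT8 was at 194 and 191 FPKM in FGF2 libraries and at 265 and 270.3 FPKM in NC libraries, KRT19 at 48.5 and 47.6 FPKM in FGF2 libraries and at 25.4 and 27.3 FPKM in NC libraries, and KRT18 at 201 and 199 FPKM in FGF2 libraries and at 194 and 193 FPKM in NC libraries. EPCAM reached at most 1.19 FPKM and CDH1 at most 0.196 FPKM in any library. A list of 7 fibroblast markers summed to 66.0 and 65.8 FPKM in FGF2 libraries and to 123 and 126 FPKM in NC libraries, mostly COL1A1, while FAP and COL1A2 were at 0. The part of these markers in the results below was not tested.

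Most of the translation factors had more transcript in FGF2 cells than in NC cells, by a similar and modest amount. Of the 60 genes, 52 reached the count minimum used here, 50 counts on average in a read set (a part of a group's reads, explained below), and 47 of the 52 had a log2 fold change (FGF2 over NC) above 0. Among all 10460 protein-coding genes with that minimum, 54.4% were above 0. The median log2 fold change was 0.30 over the 52 factors, or 1.23-fold, and 0.03 over all protein-coding genes. The middle 50% of the factors lay between 0.19 and 0.38, and the middle 50% of all protein-coding genes between -0.20 and 0.22. The factors took 2.67% and 2.63% of all counts in FGF2 libraries 1 and 2, against 2.38% and 2.36% in NC libraries 1 and 2. They were also more abundant than most genes, with a median of mean library 2 FPKM of 35.3, against 7.73 for all protein-coding genes. Where read sets averaged 1000 counts or more, a bound chosen after the data were seen, the gap in medians was smaller. The median log2 fold change there was 0.30 over 38 factors and 0.10 over protein-coding genes.

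**Figure D1:**
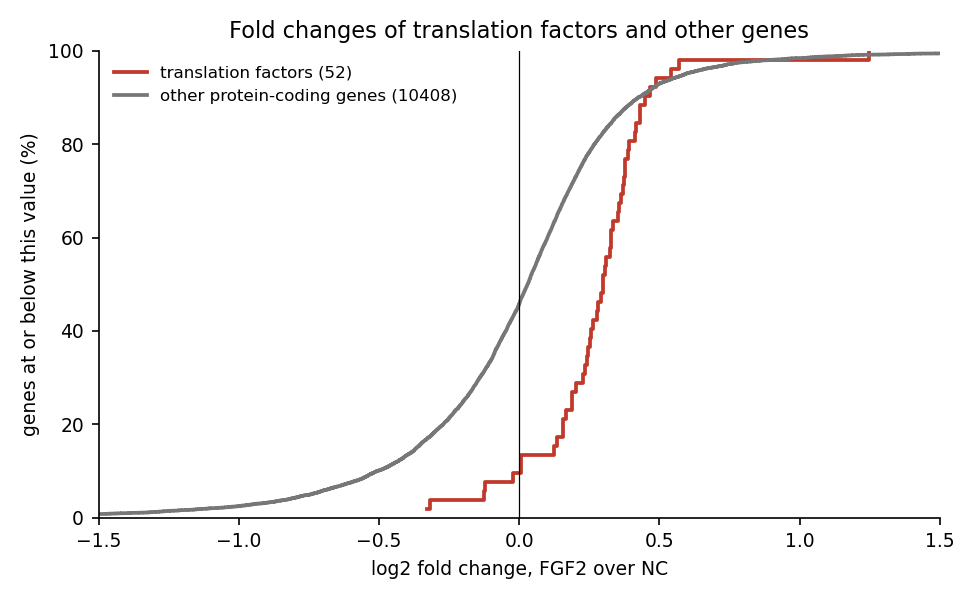
Cumulative share of genes (vertical axis, %) at or below each log2 fold change, FGF2 over NC (horizontal axis), for the 52 translation factors (red) and the other 10408 protein-coding genes with the same count minimum (grey). The factors' curve lies to the right through most of its course, with a median of 0.30 against 0.03, and meets the grey curve near its upper end.

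The curves of cumulative share show that the factors differed from other genes mostly in the middle of the range, since few factors lay below 0 and few had a large change. A gene was called when both FGF2 read sets were at least 1.2-fold above, or below, both NC read sets, so the lowest set of one group is held against the highest of the other and a gene can miss the call although each matched pair of sets passes 1.2-fold. The read sets of a group are library 1 and the remaining reads of library 2, which do not overlap. By this rule 16 of the 52 factors (30.8%) were higher in FGF2 and 1 was lower, beside 12.8% of all protein-coding genes higher and 13.2% lower. The call is sensitive to scaling, because so many factors lay near the bound. When libraries were scaled by total count alone, 5 factors were higher (9.62%) and 1 lower, beside 8.47% of all protein-coding genes higher and 17.4% lower, so that the share of factors called higher was near the background. The median of the factors under that scaling was 0.21, that of all protein-coding genes was -0.06, and 45 factors were above 0. Without FGF2 library 1 the rule gave 27 factors higher and 2 lower, and without FGF2 library 2 it gave 26 higher and 2 lower, beside 16.1% and 17.7% of protein-coding genes higher, since fewer read sets then had to pass. Where read sets averaged 1000 counts or more, a bound chosen after the data were seen, 12 of 38 factors were higher (31.6%) and 1 lower, beside 16.7% of protein-coding genes higher and 7.75% lower. With a 1.1-fold bound in place of 1.2-fold, 39 of the 52 factors were higher and 2 lower, beside 22.6% of protein-coding genes higher and 19.9% lower.

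**Figure D2:**
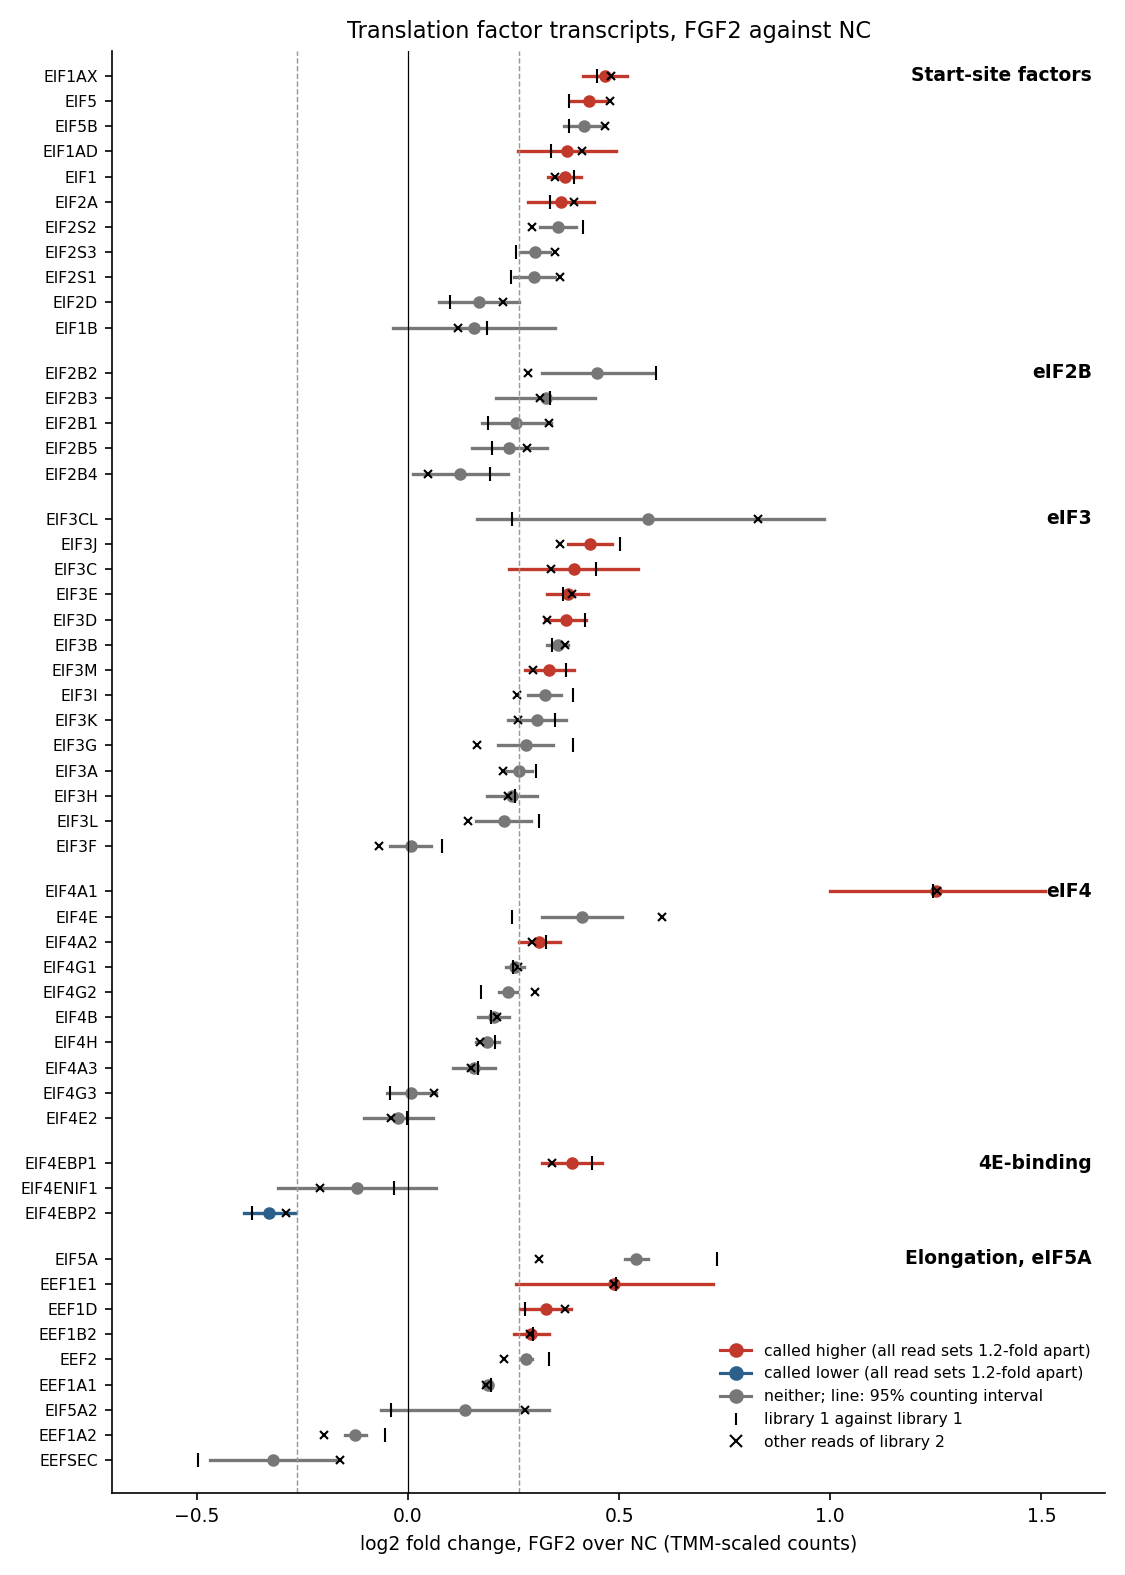
Log2 fold change, FGF2 over NC (horizontal axis), of the 52 measured factors, grouped by role and ordered by value within each group. Dots are library 2 values with 95% counting intervals, ticks and crosses the values of the separate read sets, and dashed lines the 1.2-fold bounds; EIF4A1 stands alone at 1.25, and EIF4EBP2, EEFSEC, EEF1A2, EIF4ENIF1 and EIF4E2 lie below 0.

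The plot by role also shows the values of the separate read sets. The read sets of a group are parts of 1 sample, so their likeness does not repeat the comparison. Both read sets were above 0 for 44 factors, both below 0 for 5, and on different sides of 0 for 3. The matching shares of all protein-coding genes were not counted. The median gap between the read sets was 0.09 on the log2 scale, and 18 of the 52 factors had a read set outside the 95% counting interval, so these intervals, which cover counting error only, are too narrow. The 8 factors under the count minimum were EEF1G, EIF1AY, EIF4E1B, EEF1E1-BLOC1S5, EIF2S3B, EIF4EBP3, EIF4E3 and EIF5AL1. Of the 8, 4 had no count in any library.

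Start sequences from RefSeq (GRCh38.p14) are shown for the 5 called factors that begin with a pyrimidine run and for EEF1A1 and EEF2, the most abundant factors, because they show the start type that factors with and without a call have in common. Each line gives 10 bases before and 20 bases from the annotated start, 5′ to 3′, and capitals mark the run of C and T that begins at the first transcribed base. They lie at chr2:206159885-206159914 (plus strand, the downstream of its 2 starts) for EEF1B2, chr3:150546777-150546806 (plus) for EIF2A, chr22:36529147-36529176 (minus) for EIF3D, chr11:32583821-32583850 (plus) for EIF3M, chr3:186783567-186783596 (plus) for EIF4A2, chr6:73521013-73521042 (minus) for EEF1A1 and chr19:3985444-3985473 (minus) for EEF2.
EEF1B2: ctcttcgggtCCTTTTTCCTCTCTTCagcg
EIF2A: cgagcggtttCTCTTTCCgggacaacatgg
EIF3D: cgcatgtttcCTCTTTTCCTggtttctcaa
EIF3M: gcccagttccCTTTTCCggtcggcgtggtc
EIF4A2: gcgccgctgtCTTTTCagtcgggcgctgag
EEF1A1: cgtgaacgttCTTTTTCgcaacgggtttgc
EEF2: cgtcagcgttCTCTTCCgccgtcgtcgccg

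Factors of the small-subunit complex and of start-site selection were called higher in 5 of 11 measured genes (45.5%), and eIF3 in 5 of 14 (35.7%). Of all protein-coding genes, 12.8% were called higher. When libraries were scaled by total count alone, only EIF1AX, EIF5 and EIF3J of these stayed called, beside 8.47% of protein-coding genes. All 11 measured start-site factors were above 0, with 5 called higher and none lower, a median log2 fold change of 0.36 and a range of 0.16 to 0.47. EIF1AX (chrX:20124518-20141844, minus strand, GRCh38), which encodes eIF1A and promotes scanning, was at 54.7 and 56.1 FPKM in FGF2 libraries 1 and 2, against 42.8 and 43.2 FPKM in NC libraries 1 and 2. Its FGF2 libraries were both above its NC libraries, and its log2 fold change of 0.47 was the highest of the group, with 0.41 to 0.52 as the 95% counting interval. EIF5, the GTPase-activating protein that triggers GTP hydrolysis by eIF2, was at 42.1 and 43.1 FPKM in FGF2 libraries, against 34.6 and 34.0 FPKM in NC libraries. The libraries did not overlap, and the log2 fold change was 0.43 (0.39 to 0.47).

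EIF1, which guards the accuracy of start codon choice, was at 114 and 118 FPKM in FGF2 libraries, against 92.8 and 96.7 FPKM in NC libraries. FGF2 libraries were both higher, and the log2 fold change was 0.37 (0.33 to 0.41). Its paralog EIF1B, which has 82.0% of aligned coding bases in common with EIF1, was at 8.002 and 8.79 FPKM in FGF2 libraries, against 7.51 and 8.38 FPKM in NC libraries. Here the groups overlapped, and the interval of the log2 fold change of 0.16 ran from -0.04 to 0.35. EIF1 thus held 93.4% and 93.1% of the summed FPKM of the pair in FGF2 libraries, against 92.5% and 92.0% in NC libraries.

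EIF2A, a factor that can bring initiator tRNA to the ribosome and is not a subunit of eIF2, was at 26.5 and 26.4 FPKM in FGF2 libraries, against 22.4 and 21.8 FPKM in NC libraries. EIF1AD, a protein with an eIF1A domain, is counted in this group, and its part in start-site selection was not examined. EIF1AD was at 14.3 and 14.7 FPKM in FGF2 libraries, against 12.1 and 12.02 FPKM in NC libraries. Both genes were higher in both FGF2 libraries, with log2 fold changes of 0.36 and 0.38. The 3 subunits of eIF2 itself (EIF2S1, EIF2S2 and EIF2S3) were all positive, between 0.30 and 0.36, and none was called. EIF2S1 encodes the subunit that stress kinases phosphorylate to lower initiation.

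The exchange factor eIF2B, which reloads eIF2 with GTP and is inhibited by phosphorylated eIF2, had 5 measured subunits, all above 0, and none of them was called. Their median log2 fold change was 0.26. EIF2B2, the beta subunit, was at 8.26 and 7.09 FPKM in FGF2 libraries, against 5.87 and 5.52 FPKM in NC libraries. Its FGF2 libraries were both above its NC libraries, but the read sets gave log2 fold changes of 0.59 and 0.28, and 23.6% of its exon sequence lies within other annotated genes. EIF2B4, the delta subunit, was at 9.97 and 8.83 FPKM in FGF2 libraries, against 9.30 and 8.60 FPKM in NC libraries. These overlapped, and the log2 fold change was 0.12 (0.01 to 0.24).

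The eIF3 complex, the large scaffold that holds the small subunit and recruits mRNA had a positive log2 fold change in all of its subunit genes. The exception under another scaling was EIF3F, which was below 0 when libraries were scaled by total count alone. Of the 14 genes, 5 were called higher and none lower, beside 12.8% of all protein-coding genes higher. The median log2 fold change was 0.33, and the range was 0.01 (EIF3F) to 0.57 (EIF3CL). Summed over the complex, FPKM was 866 and 859 in FGF2 libraries, against 719.7 and 731 in NC libraries. Apart from EIF3F, every subunit was higher in both FGF2 libraries than in both NC libraries. In deposited FPKM, 34.2% of protein-coding genes were higher in this way and 49.8% lower.

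**Figure D3:**
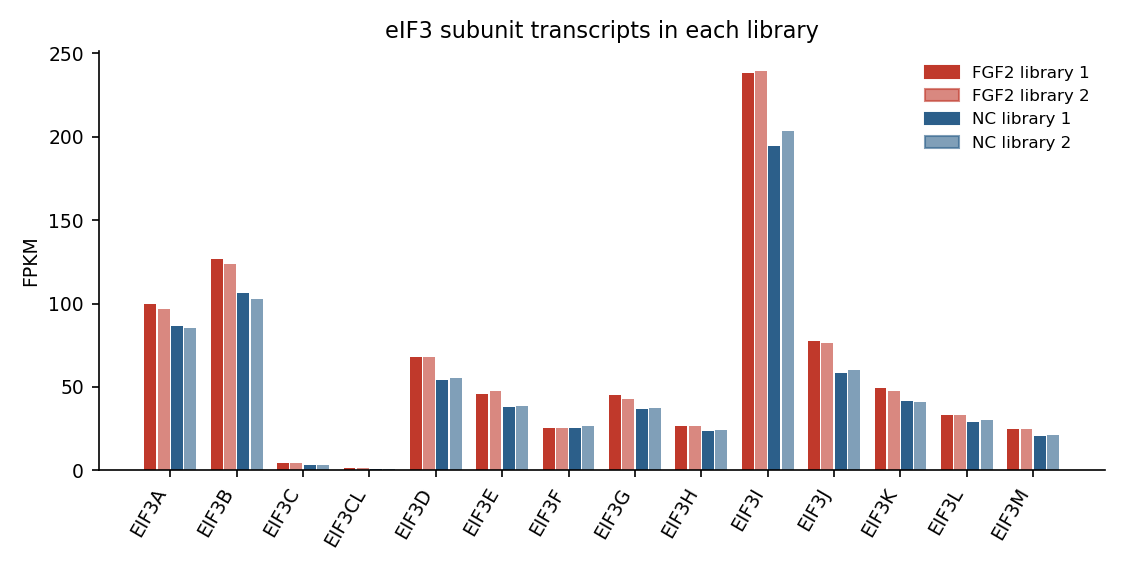
FPKM (vertical axis) of the 14 eIF3 subunit genes in each library, FGF2 libraries 1 and 2 in red and NC libraries 1 and 2 in blue. EIF3I is the highest at 238 and 239.6 FPKM in FGF2 libraries against 194 and 203 FPKM in NC libraries, and EIF3F is the one subunit whose FGF2 bars are not above its NC bars.

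The bars of the eIF3 subunits also show that transcript levels per exon length differed widely within the complex. EIF3I, a WD-repeat subunit, had the highest FPKM, and EIF3C and EIF3CL the lowest. The aligned coding bases of EIF3C and EIF3CL are identical, so their reads may be incompletely counted, which was not tested. EIF3J, a loosely bound subunit that acts at the decoding centre, was at 77.7 and 76.5 FPKM in FGF2 libraries, against 58.6 and 60.2 FPKM in NC libraries. Both FGF2 libraries were higher, with a log2 fold change of 0.43 (0.38 to 0.48).

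EIF3D, a subunit that can bind the mRNA cap, was at 68.0 and 67.9 FPKM in FGF2 libraries, against 54.3 and 55.6 FPKM in NC libraries. EIF3E, which contacts eIF4G, was at 46.1 and 47.3 FPKM in FGF2 libraries, against 38.2 and 38.7 FPKM in NC libraries. EIF3M was at 24.9 and 25.1 FPKM in FGF2 libraries, against 20.5 and 21.1 FPKM in NC libraries. In each of these genes the FGF2 libraries lay above the NC libraries without overlap, with log2 fold changes of 0.37, 0.38 and 0.33.

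EIF3C, a core subunit, has a near-identical copy, EIF3CL, and all 2739 aligned coding bases of the compared transcripts were the same, so how reads were shared between them is uncertain. EIF3C was at 4.22 and 4.12 FPKM in FGF2 libraries, against 3.31 and 3.33 FPKM in NC libraries. EIF3CL was at 1.15 and 1.44 FPKM in FGF2 libraries, against 1.03 and 1.03 FPKM in NC libraries. Both copies were higher in the FGF2 libraries, at log2 fold changes of 0.39 (0.24 to 0.54) for EIF3C and 0.57 (0.16 to 0.98) for EIF3CL, which was not called and whose read sets gave 0.25 and 0.83. EIF3F stood at the other end, with 25.3 and 25.3 FPKM in FGF2 libraries against 25.5 and 26.7 FPKM in NC libraries. Its FGF2 libraries were slightly below its NC libraries in FPKM, its log2 fold change was 0.01 after scaling and -0.08 when libraries were scaled by total count alone.

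The eIF4 group held the largest change and also members with none. Of 10 measured members, 9 were above 0 (EIF4G3 was not when libraries were scaled by total count alone). Called higher were 2 (20%) and none lower, beside 12.8% of all protein-coding genes higher. Of the 2, only EIF4A1 stayed called when libraries were scaled by total count alone, beside 8.47% of protein-coding genes. The median log2 fold change was 0.22, with a range of -0.02 to 1.25. EIF4A1 (chr17:7572706-7579005, plus strand, GRCh38), a DEAD-box helicase that unwinds the mRNA leader, was at 2.85 and 2.86 FPKM in FGF2 libraries, against 1.28 and 1.27 FPKM in NC libraries. These values rest on 419 counts in FGF2 library 2 and 185 counts in NC library 2. FGF2 libraries were more than 2-fold above NC libraries, and the log2 fold change was 1.25 (1.00 to 1.51), with 1.24 and 1.25 in the separate read sets.

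The level of EIF4A1 carries a limit. Other annotated genes cover 48.6% of its exon sequence. The largest share, 41.1%, lies within AC016876.2 on the same strand, with 0 counts in FGF2 library 2 and 1 count in NC library 2. The read-through gene SENP3-EIF4A1 covers 29.8%, and it held 13 counts in FGF2 library 2 and 7 counts in NC library 2. The setting used to count reads in shared exons is not stated in the labels, and its part in the level and the change of EIF4A1 was not tested. EIF4A2, the second helicase paralog with 76.9% of aligned coding bases in common with EIF4A1, was at 43.8 and 44.5 FPKM in FGF2 libraries, against 37.3 and 38.1 FPKM in NC libraries. It was also higher in both FGF2 libraries, at a log2 fold change of 0.31 (0.26 to 0.36).

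EIF4A3, a paralog that works in the exon junction complex on spliced mRNA, was at 49.9 and 48.9 FPKM in FGF2 libraries, against 47.5 and 46.6 FPKM in NC libraries, a log2 fold change of 0.16. EIF4A1 took 2.95% and 2.97% of the summed FPKM of these 3 genes in FGF2 libraries, against 1.49% and 1.48% in NC libraries. The share was thus higher in FGF2, while EIF4A2 and EIF4A3 together held nearly all of the family's FPKM in every library. These shares carry the same limit as the level of EIF4A1, given above.

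EIF4E, the cap-binding protein of eIF4F, was at 5.08 and 5.24 FPKM in FGF2 libraries, against 4.58 and 4.18 FPKM in NC libraries. The libraries did not overlap and the log2 fold change was 0.41 (0.32 to 0.51), but the read sets gave 0.25 and 0.60, and it was not called. EIF4E2, a cap-binding paralog known for repressing translation, was at 12.6 and 11.9 FPKM in FGF2 libraries, against 13.5 and 12.8 FPKM in NC libraries. In FPKM its FGF2 libraries were below its NC libraries, while the log2 fold change after scaling was -0.02 (-0.10 to 0.06). EIF4E made up 28.5% and 30.5% of the summed FPKM of EIF4E, EIF4E2 and EIF4E3 in FGF2 libraries, against 25.2% and 24.5% in NC libraries, and EIF4E2 most of the rest.

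The scaffolds differed among themselves. EIF4G1, the main scaffold, was at 172 and 172 FPKM in FGF2 libraries, against 155 and 153 FPKM in NC libraries. EIF4G2, a relative that lacks the eIF4E-binding part, was at 154 and 158 FPKM in FGF2 libraries, against 145 and 142 FPKM in NC libraries. Both were higher in both FGF2 libraries, at log2 fold changes of 0.25 and 0.24, and neither was called. EIF4G3 was at 17.8 and 18.2 FPKM in FGF2 libraries, against 19.6 and 19.2 FPKM in NC libraries. Its log2 fold change was 0.01, with the read sets on different sides of 0. EIF4H, which aids the eIF4A helicase, was among the 5 factors with the most FPKM, at 257 and 258 FPKM in FGF2 libraries against 239 and 240.4 FPKM in NC libraries, a log2 fold change of 0.19.

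**Figure D4:**
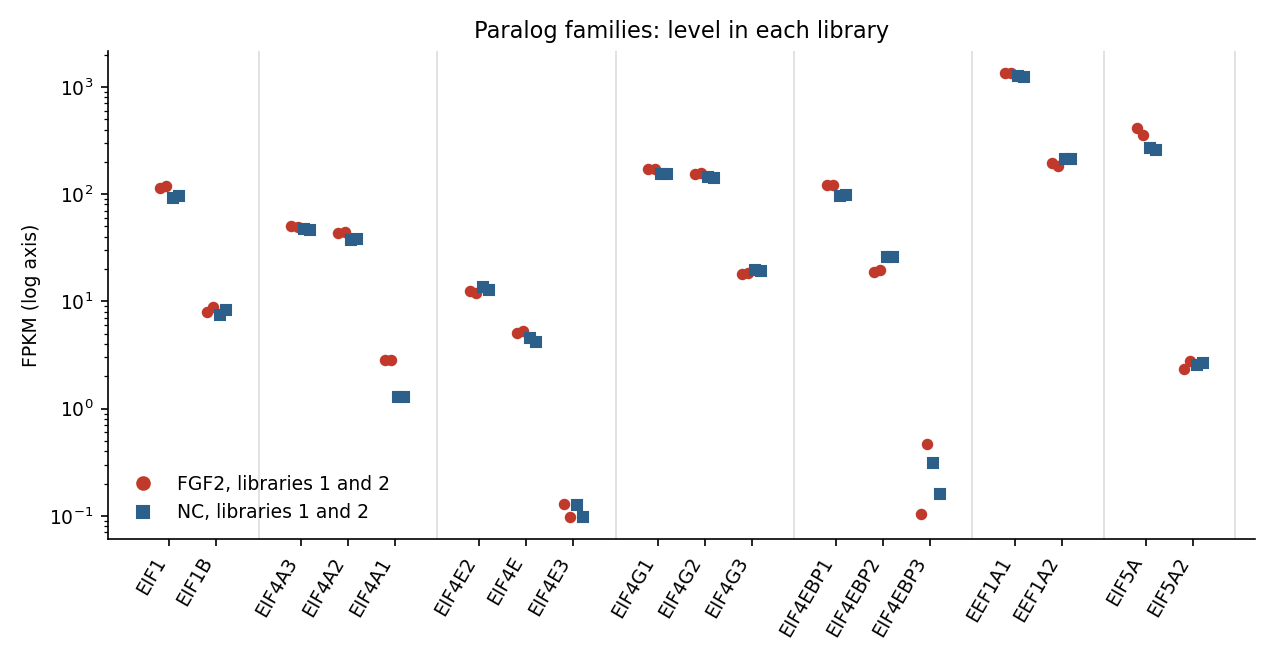
FPKM (log axis) of the members of 7 paralog families in each library, FGF2 libraries as red circles and NC libraries as blue squares, with families parted by grey lines. EIF4EBP1 lies higher in FGF2 libraries and EIF4EBP2 lower, and EIF4A1 is higher in FGF2 libraries but stays far below EIF4A2 and EIF4A3. Other annotated genes cover 48.6% of EIF4A1 exon sequence, which limits what its level shows.

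The plot of paralog families sets EIF4EBP1 against EIF4EBP2, the pair of 4E-binding proteins with calls in opposite directions. EIF4EBP1 (chr8:38030341-38060365, plus strand, GRCh38) was at 120.3 and 122 FPKM in FGF2 libraries, against 94.96 and 98.7 FPKM in NC libraries. EIF4EBP2 (chr10:70404379-70428618, plus strand, GRCh38) was at 18.7 and 19.5 FPKM in FGF2 libraries, against 25.8 and 26.0 FPKM in NC libraries. Neither gene's libraries overlapped between the groups. The log2 fold change was 0.39 (0.32 to 0.46) for EIF4EBP1 and -0.33 (-0.39 to -0.27) for EIF4EBP2, the only factor called lower. By the same rule 12.8% of protein-coding genes were higher and 13.2% lower. When libraries were scaled by total count alone, EIF4EBP2 stayed called and EIF4EBP1 did not, beside 8.47% of protein-coding genes higher and 17.4% lower.

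EIF4EBP1 made up 86.5% and 85.9% of the summed FPKM of the 3 EIF4EBP genes in FGF2 libraries, against 78.5% and 79.0% in NC libraries. EIF4EBP2 made up 13.4% and 13.8% in FGF2 libraries, against 21.3% and 20.8% in NC libraries. The EIF4EBP1 share was higher in FGF2 and the EIF4EBP2 share lower, with no overlap between groups. EIF4EBP3 had 9 counts in FGF2 library 2 and 3 counts in NC library 2 and was not compared. EIF4ENIF1, which carries eIF4E into the nucleus, had a log2 fold change of -0.12 with an interval of -0.31 to 0.07.

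Elongation factors held the most abundant transcripts of the set. Of 9 measured members, 7 were above 0, with a median log2 fold change of 0.28. Called higher were 3 (33.3%) and none lower, beside 12.8% of all protein-coding genes higher. Only EEF1E1 of the 3 stayed called when libraries were scaled by total count alone, and EEF1B2 and EEF1D did not. Although counted in this group, EEF1E1 encodes a scaffold protein of the aminoacyl-tRNA synthetase complex. EEF1A1, the main carrier of aminoacyl-tRNA, was at 1347 and 1334 FPKM in FGF2 libraries, against 1256 and 1242 FPKM in NC libraries. EEF1A2, the paralog otherwise typical of muscle and neurons, was at 193 and 184 FPKM in FGF2 libraries, against 214 and 213 FPKM in NC libraries. EEF1A1 was higher in both FGF2 libraries and EEF1A2 lower, at log2 fold changes of 0.19 and -0.13, both inside the 1.2-fold bound. Over the pair, EEF1A1 held 87.5% and 87.9% of FPKM in FGF2 libraries, against 85.4% and 85.4% in NC libraries.

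EEF2, the translocase, was at 902 and 877 FPKM in FGF2 libraries, against 764 and 766 FPKM in NC libraries. Its FGF2 libraries were both higher, with a log2 fold change of 0.28 (0.27 to 0.29) that was not called because the read sets gave 0.33 and 0.23. EIF5A, the hypusine-bearing factor that helps ribosomes past proline-rich stretches, was at 417 and 354 FPKM in FGF2 libraries, against 268 and 258 FPKM in NC libraries. FGF2 libraries were both well above NC libraries, at a log2 fold change of 0.54 (0.51 to 0.57). It was not called, since the lower FGF2 read set was not 1.2-fold above the higher NC read set. The matched read sets of EIF5A gave 0.73 and 0.31, a gap far wider than the counting interval, so its size is less certain than its counts imply. The copy EIF5AL1 has 98.9% of aligned coding bases in common with EIF5A and had 18 counts in FGF2 library 2 and 25 counts in NC library 2, so some reads may have been split between them. EIF5A2 was at 2.33 and 2.75 FPKM in FGF2 libraries, against 2.57 and 2.66 FPKM in NC libraries, with overlap.

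The exchange complex that recharges eEF1A had calls in both of its measured subunits. EEF1B2 was at 195.0 and 195 FPKM in FGF2 libraries, against 169.6 and 169 FPKM in NC libraries. EEF1D was at 17.8 and 18.5 FPKM in FGF2 libraries, against 15.6 and 15.6 FPKM in NC libraries. The libraries of both genes were parted without overlap, at log2 fold changes of 0.29 and 0.33. Exon sequence is shared with other annotated genes for 17.4% of EEF1B2 and 34.0% of EEF1D. EEF1G, the third subunit, was listed at 0 counts in every library, which allows up to 3 counts per library, and 99.9% of its exon sequence lies within the overlapping annotated gene AP002990.1, with 82 counts in FGF2 library 2 and 73 counts in NC library 2. EEF1G was therefore not measured here.

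EEF1E1, a scaffold protein of the aminoacyl-tRNA synthetase complex, was at 6.40 and 6.17 FPKM in FGF2 libraries, against 4.86 and 4.67 FPKM in NC libraries. Both FGF2 libraries were higher, and the log2 fold change was 0.49 (0.26 to 0.72) on 359 counts in FGF2 library 2 and 269 counts in NC library 2. EEFSEC, which delivers selenocysteine tRNA, was at 8.45 and 9.61 FPKM in FGF2 libraries, against 12.7 and 12.7 FPKM in NC libraries. It was lower in both FGF2 libraries, at a log2 fold change of -0.32 (-0.47 to -0.17), and was not called since the read sets gave -0.50 and -0.16. On the other strand, RUVBL1 overlaps its exons, and 15.3% of EEFSEC exon sequence lies within other genes. The library kit does not mark strand, so reads in that overlap cannot be told apart.

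**Figure D5:**
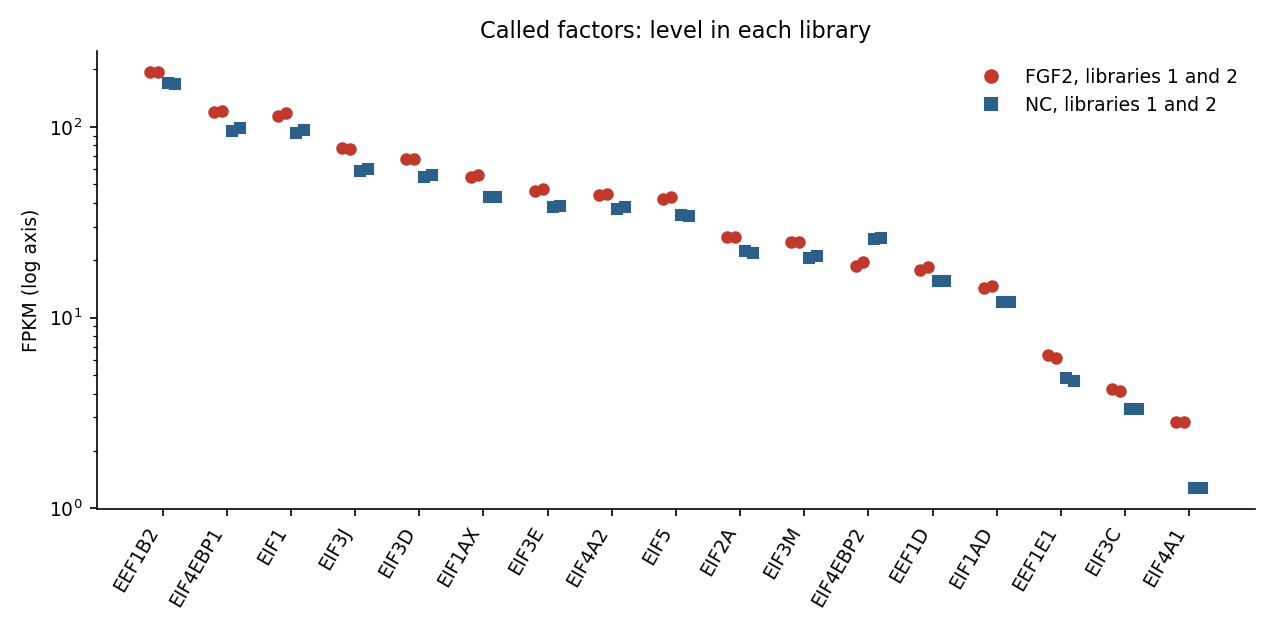
FPKM (log axis) of the 17 called factors in each library, FGF2 libraries as red circles and NC libraries as blue squares, ordered by mean FPKM. In 16 factors both FGF2 libraries lie above both NC libraries, and EIF4EBP2 shows the opposite order, which the call rule nearly fixes.

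The plot of called factors runs from EEF1B2 at 195 FPKM to EIF4A1 at 2.86 FPKM in FGF2 library 2, so calls were not confined to one range of levels. In deposited FPKM, 41 of the 52 measured factors were higher in both FGF2 libraries than in both NC libraries, 7 were lower and 4 overlapped, beside 34.2% of protein-coding genes higher and 49.8% lower. Leaving out factors with at least 10% of exon sequence in other genes left 39 measured factors, with a median log2 fold change of 0.30. Of the 39, 11 were called higher (28.2%) and 1 lower, beside 12.8% of all protein-coding genes higher and 13.2% lower.

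RefSeq starts were matched by symbol for 50 of the 60 factors. Those not matched were EEF1A2, EEF1D, EIF2S2, EIF3A, EIF3CL, EIF3E, EIF3G, EIF3H, EIF3L and EIF4EBP1. The pyrimidine start, as in the sequences shown above, was counted where the first transcribed base was C and at least 5 bases from it were C or T, on the transcribed strand only and at any listed start. It was found in 12 of 42 matched and measured factors (28.6%), against 7.79% of protein-coding genes with the same count minimum. The median log2 fold change was 0.30 in the 12 with it and 0.31 in the 30 without it. These medians were 0.31 and 0.25 in library 1 alone, and 0.27 and 0.31 in the other read set. The order of the medians was thus opposite in the separate read sets. The difference between factors with and without the pyrimidine start was not tested. Of the 13 matched factors called higher, 5 had it, and of the 29 not called higher, 7 had it. Over all protein-coding genes, 12.4% of the 661 with a pyrimidine start were called higher, and 12.4% of the 7821 without one.

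The motif CACGTG, which reads the same on both strands, was also counted in the 300 bases from 250 before to 50 after each start. It was present in 11 of the 42 measured factors (26.2%), against 13.1% of protein-coding genes. Windows of 30 bases around it are shown for 4 eIF4 genes because factors that hold it were not among the called ones, with capitals marking the motif, at chr4:98929341-98929370 (minus strand) for EIF4E, chr3:184314450-184314479 (plus) for EIF4G1, chr7:74174145-74174174 (plus) for EIF4H and chr12:53006422-53006451 (plus) for EIF4B.
EIF4E: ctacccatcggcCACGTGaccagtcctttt
EIF4G1: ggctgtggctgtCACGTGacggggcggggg
EIF4H: acgccgccgcacCACGTGggctgcagagcg
EIF4B: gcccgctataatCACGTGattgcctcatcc

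None of the 13 matched factors called higher held the motif, and 11 of the 29 not called higher did. This depends on the 1.2-fold bound. With a 1.1-fold bound, EIF2B3, EIF3K, EIF4B, EIF4E, EIF4G1 and EIF4H of the 11 were called higher and EEFSEC lower. EIF1B, EIF3F, EIF4A3 and EIF5A2 were not called. The share called among all protein-coding genes with the motif was not counted. The median log2 fold change was 0.19 in the 11 factors with the motif and 0.32 in the 31 without it. These counts are descriptions of the listed windows, and the 11 factors still lay mostly above 0.

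Translation genes outside the name rule moved less evenly. A list of 49 such genes (regulators, termination and poly(A)-binding factors, kinases) had 46 measured, with 13 called higher (28.3%), 2 lower and a median log2 fold change of 0.21, beside 12.8% of protein-coding genes higher and 13.2% lower. PABPC1, the main poly(A)-binding protein, was at 270.2 and 279 FPKM in FGF2 libraries, against 235 and 236 FPKM in NC libraries, and ETF1, the termination factor that reads stop codons, was at 108 and 108 FPKM in FGF2 libraries, against 84.8 and 84.0 FPKM in NC libraries. Both were higher, at log2 fold changes of 0.33 and 0.45. PDCD4, a protein that inhibits the eIF4A helicase, was at 2.85 and 3.07 FPKM in FGF2 libraries, against 6.41 and 5.95 FPKM in NC libraries. It was lower in both FGF2 libraries, at a log2 fold change of -0.87 (-1.05 to -0.69), and 29.5% of its exon sequence is shared with other annotated genes. Genes that set the phosphorylation of eIF2 were called in both directions. PPP1R15A, a subunit of the phosphatase that acts on eIF2, was at 34.2 and 37.0 FPKM in FGF2 libraries, against 19.3 and 20.5 FPKM in NC libraries, and its log2 fold change of 0.94 was the highest of the list. PPP1R15B, on the same list, was not called, with a log2 fold change of 0.02 (-0.05 to 0.09). Of the kinases that phosphorylate eIF2, EIF2AK4 was called higher at 0.34 and EIF2AK1 was called lower at -0.36. EIF2AK2 at -0.11 and EIF2AK3 at -0.41 were not called.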

How the data were processed

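Each of the 4 libraries came with 1 table in which the authors deposited raw read counts and FPKM per gene. The submitters' processing notes name HISAT2, HTSeq 0.13.5 and the GRCh38 genome but no annotation release. The deposited FPKM equalled counts divided by total and by GENCODE v29 merged exon length for 99.5% of 13457 genes with over 20 counts in FGF2 library 2, so coordinates are from that release. Libraries of a group were not treated as replicates, since library 1 appears contained in library 2; nothing in the labels names separate cultures. Read sets were library 1 and library 2 less library 1. They were scaled by TMM (edgeR 4.0.16 in R 4.3.3) over the 15030 genes kept by filterByExpr. Fold changes are log2 ratios of library 2 scaled counts with 0.5 added, with exact Clopper-Pearson 95% counting intervals, which cover counting error only. A call needed both FGF2 read sets to be at least 1.2-fold above, or below, each NC read set, and a mean of 50 counts. No test between conditions was possible with 1 sample per group. Exon overlap was taken with bedtools 2.31.1, regardless of strand. Alternatives were other scalings, libraries, count minimums, fold bounds and log2(FPKM + 1) or log2(FPKM + 0.1). Per-library values are given for called factors, the highest and lowest of each role group, the paralog families and the 5 factors with most FPKM. EIF2S1, EIF2S2, EIF2S3, EIF4ENIF1 and the genes outside the name rule were named after their values were seen. The members, lists and motifs were chosen with earlier results of these data known.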

Additional observations from a re-analysis of the deposited data

How the results depend on the processing

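The median log2 fold change of the factors stayed positive throughout, and the number of calls did not stay the same, because many factors lie near the 1.2-fold bound. When libraries were scaled by total count alone, 5 factors were higher, beside 8.47% of protein-coding genes, and the median was 0.21. Those 5 were EEF1E1, EIF1AX, EIF3J, EIF4A1 and EIF5, all among the 16. With log2(FPKM + 1), 8 were higher and 2 lower, with a median of 0.21, beside 9.16% of protein-coding genes higher and 17.4% lower. With log2(FPKM + 0.1), 10 were higher and 2 lower, with a median of 0.21, beside 10.7% of protein-coding genes higher and 21.2% lower. FPKM is scaled by total count alone. Library 1 alone gave 28 higher and 2 lower, the other reads of library 2 alone 30 higher with a median of 0.29, and the mean of the deposited libraries 32 higher and 2 lower, beside 22.8%, 22.6% and 21.2% of protein-coding genes higher; these ask for 1.2-fold once. A 1.5-fold bound left 1 higher (EIF4A1, 1.92%) and 0 lower, below the 3.15% and 5.10% of protein-coding genes, and a 1.1-fold bound gave 39 higher and 2 lower, beside 22.6% and 19.9% of protein-coding genes. A minimum of 200 counts gave a median of 0.29. Leaving out 1 library at a time gave 19 to 27 higher, 1 to 2 lower and a median of 0.29 to 0.30. Beside these, 16.1% to 17.7% of protein-coding genes were higher. All 16 called factors were among those higher each time, but the rule nearly fixes this, since fewer read sets had to pass. Without library 1 of a group, its reads remain in library 2, and the median is the main value itself. Median-of-ratios scaling changed no call. Of 407 values of 37 single factors under alternatives, 285 stayed inside the counting interval, 122 did not, and no called value turned its direction. The 285 include every value without library 1 of FGF2 or of NC. Those values come from library 2 as in the main setting, so they could not move. No paired analysis was possible because the libraries of each group share reads and count as 1 sample. Depth limits EIF4A1, EIF3CL and EEF1E1 most, and the design, with 1 sample per group, limits every result.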

Other observations

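Processed copies of these genes took few reads. The tables list 136 pseudogenes named after 26 of the factors, and in FGF2 library 2 no factor had pseudogenes with as much as 5% of its own counts, while for 22 they held under 1%. EIF5AP4, a copy of EIF5A, had 1085 counts in FGF2 library 2 and 715 counts in NC library 2, a log2 fold change of 0.67 (0.54 to 0.81), near the 0.54 of EIF5A itself. EEF1A1P5, a copy of EEF1A1, had 1523 counts in FGF2 library 2 and 1588 counts in NC library 2, a log2 fold change of 0.01 (-0.09 to 0.11), beside 0.19 for EEF1A1. The pseudogenes of EIF4A1 held 17 counts in FGF2 library 2 and 23 counts in NC library 2, or 4.06% and 12.4% of the counts of EIF4A1.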
